A study of Mus musculus with 18 samples.

Results

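The genes described are the translation initiation and elongation factors of the mouse, taken by name as every symbol that begins with Eif1 to Eif6 or with Eef1 or Eef2. After 13 pseudogene symbols were set aside, 88 symbols remained, and 67 of them had 5 or more reads in 2 or more libraries and were analysed, out of 13552 genes analysed in all. The other 21 held 0 to 30 reads over all libraries; they were mostly copies of the Eif1ad family, and also Eif5a2, Eef1e1 and Eef1akmt4. RNA had been sequenced from the brains of Atxn2-CAG100-KIN (KIN) mice, in which a stretch of 100 CAG repeats sits in both copies of the mouse Atxn2 gene, and from wild-type (WT) littermates without the stretch, all on a C57BL/6 background and 10 months old. KIN and WT mice were matched by sex, and both sexes were used. From each brain, microglia were taken with beads against CD11b, astrocytes with beads against ACSA-2, and neurons were what was left after the remaining other cell types, endothelial cells among them, had been held back. This gave 18 libraries, 3 for each fraction and genotype, and no label says which replicate numbers of different fractions or genotypes came from 1 brain or 1 litter.

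Initiation factors bring the small ribosomal subunit to an mRNA and find its start codon. eIF2 carries the initiator tRNA and is recharged by eIF2B. The many subunits of eIF3 bind the small subunit, and eIF4F binds the cap and unwinds the leader of the mRNA. Stress kinases shut initiation down through eIF2 alpha, and the 4E-binding proteins do so through the cap-binding protein eIF4E. In elongation, eEF1A delivers each aminoacyl-tRNA, the eEF1B subunits recharge eEF1A, and eEF2 moves the ribosome on by a codon. eEF1A comes from a pair of genes. Eef1a1 is used by most cells, and Eef1a2 takes over in mature neurons and muscle.

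Depth limits these genes. The libraries held 761481 to 3296398 reads after duplicates had been collapsed by molecular identifiers, the neuronal ones fewest, and the KIN neuronal libraries (1473194 to 2017932 reads) all deeper than the WT ones (761481 to 1017972 reads). The factors took 0.439% to 1.27% of a library. Of these reads 94.5% were on just 4 genes, Eif4a1, Eif4a2, Eif4g2 and Eif5, and the other 63 had 27 to 3551 reads each over the 18 libraries, with a median of 175. A library with 3 reads or fewer of a gene was taken to be at the floor, which is 0.864 to 4.05 CPM on the scale of the levels. Levels are given as CPM, the reads of a gene relative to the size of its library, after TMM scaling of the library sizes, and a gene was called where the adjusted p of edgeR's quasi-likelihood test was at most 0.05 and the absolute log2 fold change at least 1. Errors of log2 fold changes are standard errors from that fit. Fewer cells of a type and less RNA per cell cannot be told apart in such bulk libraries.

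The largest genotype difference called among the factors was in Eef1a2, in astrocytes, in microglia and over all fractions. Its transcript lies on the minus strand at chr2:180778581-180799600 of GRCm39. In the astrocyte fraction the WT libraries held 47, 13 and 62 reads, or 16.6, 4.23 and 19.4 CPM, and the KIN libraries 6, 6 and 7 reads, or 1.73, 3.07 and 2.68 CPM. The highest KIN value was under the lowest WT value, and Eef1a2 fell by 2.49 ± 0.40 on the log2 scale (edgeR, adjusted p = 1.9e-05). In the microglia fraction the WT libraries held 40, 3 and 28 reads, or 11.9, 1.49 and 11.9 CPM, and the KIN libraries 4, 3 and 1 reads, or 1.59, 1.08 and 0.351 CPM. Here WT replicate 2 stood apart from the other two and was at the floor, as were KIN replicates 2 and 3, so the size of the change is uncertain, and Eef1a2 fell by 3.12 ± 0.58 (adjusted p = 0.0048). Without KIN replicate 2 or KIN replicate 3 the adjusted p in microglia was 0.058 and 0.064, and without WT replicate 1 or 3 the gene no longer passed the filter on low counts. DESeq2 gave it no adjusted p in microglia and so did not call it. The study itself named the pair of eEF1A genes from these samples, so this direction is not independent evidence.

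The neuronal fraction held almost no Eef1a2 reads. WT libraries had 1, 0 and 3 reads and KIN libraries 1, 0 and 3, all at the floor, and the gene was not tested there. Over the 3 fractions with the fraction as a covariate, Eef1a2 fell by 2.52 ± 0.36 in KIN (adjusted p = 1.7e-06). Its KIN effect in microglia differed from that in astrocytes by -0.64 ± 0.77, which was not called (adjusted p = 0.83). Over both genotypes the astrocyte libraries averaged 7.96 ± 7.89 CPM (SD, n = 6), the microglia libraries 4.73 ± 5.60 and the neuronal libraries 1.29 ± 1.53. WT libraries carried the glial means, and in KIN the microglia libraries, at 0.351 to 1.59 CPM, lay below the floor of every KIN neuronal library, so no order of these fractions is read there. Against astrocytes the neuronal fraction was lower (adjusted p = 0.00064), and with the neuronal libraries set to the floor, 2.78 CPM on average, it was at least 2.86-fold lower. This bound rests on the WT astrocytes, and none holds in KIN, where the astrocytes averaged 2.49 CPM. Neurons against microglia stood at -1.29 ± 0.65 (adjusted p = 0.12), which was not called, but it was called in the 6 WT libraries (adjusted p = 0.018), with the leading transcript of each gene (0.048), and without microglia WT replicate 2 (0.046) or neurons WT replicate 3 (0.042). Astrocytes against microglia stood at 0.91 ± 0.39 (adjusted p = 0.0498), under the fold for a call, and was called, at 1.03 to 1.14, without astrocytes WT replicate 2 or KIN replicate 1 or microglia WT replicate 1, WT replicate 3 or KIN replicate 1.

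Eef1a1, on the minus strand at chr9:78385731-78389006, was not called in any fraction. In astrocytes the WT libraries were at 31.4, 20.2 and 18.2 CPM and the KIN libraries at 27.7, 41.4 and 30.3 CPM, which overlap, with a difference of 0.48 ± 0.23 on the log2 scale (adjusted p = 0.17). In microglia the WT libraries were at 32.3, 43.2 and 34.9 CPM and the KIN libraries at 62.4, 69.3 and 54.4 CPM, which do not overlap, with a difference of 0.76 ± 0.23 (adjusted p = 0.094). In neurons the WT libraries were at 66.1, 28.7 and 22.9 CPM and the KIN libraries at 28.8, 46.2 and 50.9 CPM, with a difference of -0.10 ± 0.32 (adjusted p = 0.99). WT replicate 1 was the highest of the neuronal libraries. Over both genotypes, astrocytes against microglia stood at -0.79 ± 0.19 (adjusted p = 0.00031), short of the fold needed for a call, and neurons against microglia at -0.22 ± 0.20 (adjusted p = 0.42). Over the 3 fractions the KIN difference was 0.47 ± 0.18 (adjusted p = 0.15).

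**Figure D1:**
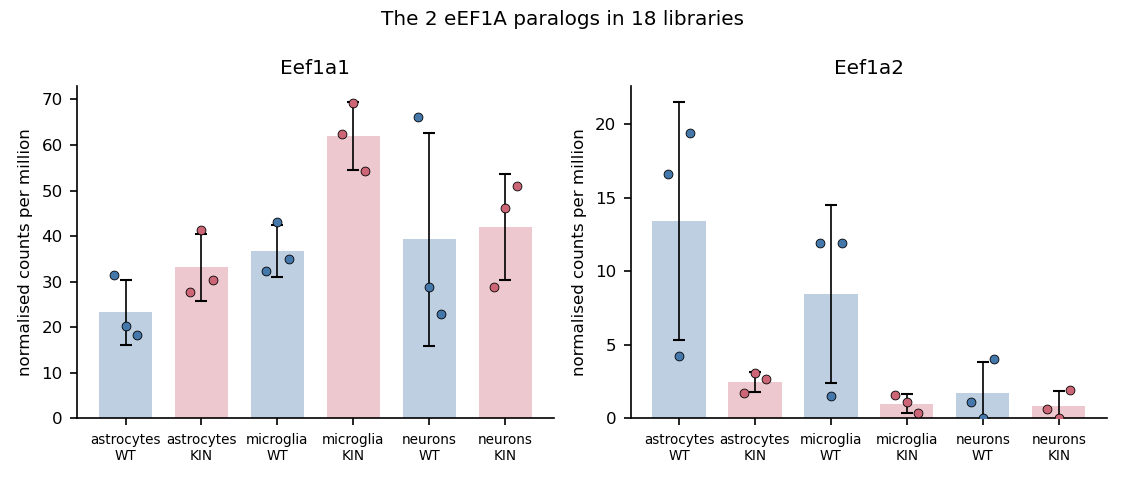
CPM after TMM scaling (vertical axis) of Eef1a1 and Eef1a2 in each library, with points for the 3 libraries of a fraction and genotype, bars for their mean and whiskers for the SD, cut at 0. Eef1a2 is at most 3.07 CPM in every KIN library and reaches 19.4 CPM in WT astrocytes, while Eef1a1 is above 18 CPM everywhere.

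The balance of the pair was also taken within each library, where library size cancels, as log2 of the Eef1a1 reads over the Eef1a2 reads with 0.5 added to both. In astrocytes it was 0.91, 2.21 and -0.10 in WT and 3.89, 3.65 and 3.41 in KIN. In microglia it was 1.42, 4.64 and 1.53 in WT and 5.13, 5.79 and 6.70 in KIN. KIN lay above WT without overlap in both, by 2.64 in astrocytes and by 3.34 in microglia, and each exact permutation test (two-sided) gave p = 0.1, the smallest that 3 against 3 libraries allow (adjusted over the 3 fractions, 0.15). In microglia 3 libraries were at the floor for Eef1a2. In neurons it was 5.36, 5.83 and 2.32 in WT and 4.89, 6.85 and 4.51 in KIN, with overlap. Every neuronal library was at the floor for Eef1a2, so the added 0.5 largely sets these ratios, and no difference between genotypes or fractions is read from them. The longest stretch of identical sequence between annotated transcripts of the pair was 23 bases.

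Markers of neurons moved with Eef1a2. In the astrocyte fraction 10 neuron markers summed to 63.5 to 188 CPM, here without TMM scaling, in WT and to 29.1 to 62.0 in KIN, and 8 of the 10 were called lower. In the microglia fraction they summed to 12.7 to 82.0 in WT and to 10.2 to 13.5 in KIN, and 5 of the 10 were called lower. WT replicate 2 had the lowest sum of the WT libraries in both, as it had the fewest Eef1a2 reads. In the neuronal fraction the sums were 106 to 154 in WT and 107 to 145 in KIN, yet at most 3 Eef1a2 reads were found in a library there. These sums lay within the range of the WT astrocyte libraries. The neuron markers therefore did not set the neuronal fraction apart from WT astrocytes, and the word neurons here names the fraction only. Per 100 reads of the neuron markers, Eef1a2 had 11.7, 8.90 and 16.3 reads in WT astrocytes and 4.44, 8.33 and 4.52 in KIN astrocytes, without overlap. It had 17.2, 7.14 and 21.4 reads in WT microglia and 13.3, 9.68 and 2.86 in KIN microglia, with overlap, and 0 to 3.70 reads in the neuronal libraries. The part of neuronal RNA in the Eef1a2 result was not tested.

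**Figure D2:**
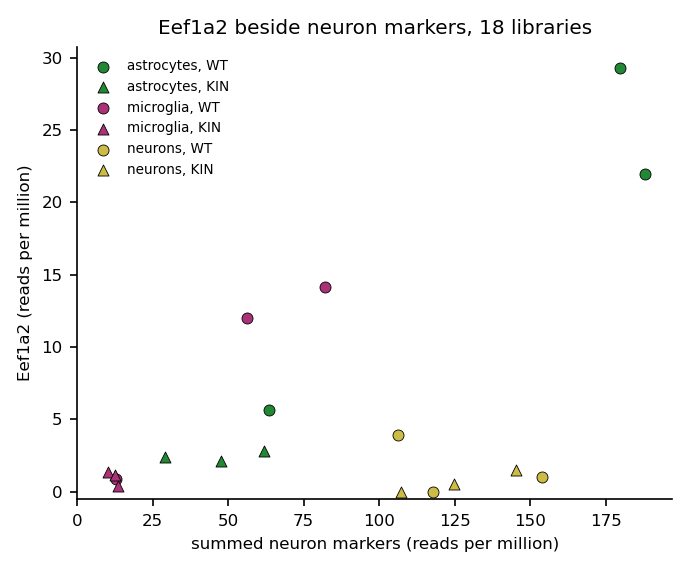
Eef1a2 (vertical axis) against the sum of 10 neuron markers (horizontal axis), both in CPM without TMM scaling, 1 point per library. The WT astrocyte and microglia libraries with high marker sums have the most Eef1a2, and the neuronal libraries have marker sums above 100 with almost no Eef1a2.

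Other marker lists differed between the fractions. The oligodendrocyte markers were highest in the astrocyte fraction, which therefore did not hold astrocyte RNA alone. The 6 astrocyte markers summed to 406 to 568 CPM without TMM scaling in WT astrocytes and to 162 to 235 in KIN astrocytes, without overlap, and 2 of the 6 were called lower there. Also without overlap and lower in KIN astrocytes were the sums of the microglia markers (7.39 to 14.6 against 4.95 to 6.40), the red blood cell markers (23.1 to 31.7 against 8.80 to 17.3) and the 3 endothelial markers (52.2 to 66.6 against 42.0 to 49.6), none of whose genes was called. In KIN microglia 1 of the 3 endothelial markers was called lower, while their sum was at 30.0 to 48.1 in WT and at 43.3 to 53.4 in KIN, with overlap. All 4 oligodendrocyte markers tested in KIN microglia were below 0, none of them called. The 6 microglia markers were at 436 to 531 and 489 to 578 in WT and KIN microglia, and Aif1, Tmem119 and P2ry12 were at 0 in the neuronal fraction, as was Aqp4. The 6 oligodendrocyte markers summed to 420.2 to 680 in WT and 392 to 620.1 in KIN astrocytes, where all 6 had a log2 fold change above 0 (median 0.39) and 1, Mog, was called higher. They stood out in 1 WT neuronal library, at 248.5 where the lowest was at 15.4 and the KIN libraries were at 11.4 to 28.4, and of the 4 tested there 1, Mbp, was called lower in KIN. Red blood cell markers were highest in the neuronal fraction, at 245.6 to 499 in WT and 84.7 to 278 in KIN. Their part in the results below was not tested.

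The mRNA of the altered gene, Atxn2, whose protein binds the poly(A)-binding protein, stood in KIN against WT at a log2 fold change of -0.24 in astrocytes, -0.56 in microglia and -0.20 in neurons (adjusted p = 0.63, 0.47 and 0.98). An expanded repeat need not change an mRNA's amount, so these values do not check the labels.

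In KIN astrocytes 4 factors rose and 1 fell, of 62 tested, or 6.45% and 1.61%. Over all 11751 genes tested 2.43% were called higher and 6.42% lower. The log2 fold change was above 0 for 44 of the 62, with a median of 0.42, while the median of all genes was -0.00. Those that rose were the eIF3 subunits Eif3h and Eif3k, the beta subunit of eIF2 (Eif2s2), and Eif4a3, a helicase that despite its name belongs to the exon junction complex left on mRNA by splicing. The factor that fell was Eef1a2.

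Eif3h (chr15:51648227-51728919, minus strand) was at 3.89, 6.18 and 4.39 CPM in WT and at 10.9, 12.8 and 11.5 CPM in KIN astrocytes. The groups were well apart, and Eif3h rose by 1.25 ± 0.29 (adjusted p = 0.0027), a call kept under each of the 15 settings and left-out libraries tried. Eif2s2 was at 3.18, 5.20 and 4.70 CPM in WT and at 10.4, 8.19 and 9.97 CPM in KIN, and it rose by 1.11 ± 0.31 (adjusted p = 0.011). Eif3k was at 4.59, 8.13 and 4.39 CPM in WT and at 11.5, 13.3 and 10.7 CPM in KIN, and it rose by 1.02 ± 0.29 (adjusted p = 0.014). For Eif3h, Eif2s2 and Eif3k no KIN library lay as low as any WT library, and WT replicate 2 was the highest WT library of each. Eif4a3 was at 2.12, 3.90 and 7.84 CPM in WT and at 12.7, 9.72 and 10.4 CPM in KIN, and it rose by 1.21 ± 0.32 (adjusted p = 0.0074), also without overlap. Without WT replicate 1 the adjusted p was 0.087 for Eif2s2, 0.089 for Eif3k and 0.10 for Eif4a3. The calls of Eif2s2 and Eif4a3 were also lost without KIN replicate 1 (0.058 and 0.070), and that of Eif3k without WT replicate 3 or KIN replicate 2 (0.12 and 0.058). DESeq2 gave 0.088, 0.087 and 0.069 in the same order. With the leading transcript alone Eif3k had an adjusted p of 0.054 and Eif4a3 one of 0.23, and with only genes of a mean of at least 10 reads Eif3k was under the fold (0.99). In all, Eif2s2 was called in 12, Eif4a3 in 11 and Eif3k in 9 of 15 settings.

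By role, the eIF3 complex had 2 of 13 subunits called higher in KIN astrocytes and 11 of 13 above 0, with a median log2 fold change of 0.39. Of the eIF2 subunits and the factors that deliver the initiator tRNA, 1 of 6 was called and the median was 0.47. None of the 4 eIF2B subunits tested, the 4 eIF2 alpha kinases, the 10 members of eIF4F and its helpers or the 3 regulators of eIF4E was called, with medians of 0.69, 0.03, 0.05 and -0.17. The 3 subunits of eEF1B (Eef1b2, Eef1d and Eef1g) stood at 0.75, 0.54 and 0.70, none of them called. The 5 modifiers of elongation factors had a median of 0.97, none of them called, and the 6 factors of start codon selection one of 0.42.

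Some abundant factors in astrocytes passed the adjusted p but not the fold. Eif5a, which helps ribosomes past difficult stretches, was at 16.6, 13.7 and 13.5 CPM in WT and at 28.2, 32.7 and 26.5 CPM in KIN (0.98 ± 0.22, adjusted p = 0.0020), and it was called, at 1.01 to 1.07, without WT replicate 1, KIN replicate 1 or KIN replicate 3. Eef2 was at 46.6, 65.3 and 46.1 CPM in WT and at 88.7, 85.4 and 79.4 CPM in KIN (0.67 ± 0.21, adjusted p = 0.027). Eif1, which guards the choice of start codon, was at 15.5, 18.2 and 18.8 CPM in WT and at 31.4, 24.6 and 31.1 CPM in KIN (0.72 ± 0.22, adjusted p = 0.022). None of the 3 had overlapping groups. Eif1b, the paralog of Eif1, stood at -0.20 ± 0.53 (adjusted p = 0.87), on 3 to 10 reads per library. On the low side, apart from Eef1a2, the lowest values among factors with a mean of at least 10 reads were those of the eIF3 subunit Eif3a (-0.40 ± 0.32, adjusted p = 0.48) and the eIF4G paralog Eif4g3 (-0.34 ± 0.25, adjusted p = 0.43).

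Paralogs with like roles were set side by side, and none of those that follow was called in KIN astrocytes. The cap-binding proteins Eif4e, Eif4e2 and Eif4e3 stood at 0.35 ± 0.43, -0.26 ± 0.34 and -1.23 ± 0.70, and the scaffolds Eif4g1 and Eif4g2 at 0.11 ± 0.22 and 0.58 ± 0.23. The kinases of eIF2 alpha that respond to heme, double-stranded RNA, misfolded proteins and lack of amino acids (Eif2ak1 to Eif2ak4) stood at 0.70 ± 0.43, -0.23 ± 0.32, 0.30 ± 0.51 and -0.92 ± 0.52. The inhibitors Eif4ebp1 and Eif4ebp2 stood at -0.66 ± 0.48 and 0.37 ± 0.34, and Eif4ebp3 had too few reads. Eif2s3x and Eif2s3y, the X-linked and Y-linked gamma subunits of eIF2, stood at 0.25 ± 0.24 and -0.49 ± 0.87. For these the adjusted p lay between 0.093 and 0.82. Eef2k, the kinase of eEF2, stood at 0.10 ± 0.30 (adjusted p = 0.89). Without its transcript that holds a small nucleolar RNA, described below, Eif4g2 stood at -0.03 ± 0.23 (adjusted p = 0.96).

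In KIN microglia no factor rose and 1, Eef1a2, fell of 62 tested. Over all 10831 genes 0.739% were called higher and 0.785% lower. The median of the factors was 0.13 (all genes -0.01), and 38 were above 0. The highest values among factors with a mean of at least 10 reads were those of the eEF1B subunit Eef1b2, at 6.27, 6.45 and 5.96 CPM in WT and at 18.3, 12.2 and 8.07 CPM in KIN (1.03 ± 0.31, adjusted p = 0.092), of Eif3i (0.91 ± 0.39, adjusted p = 0.32) and of Eif3h (0.90 ± 0.33, adjusted p = 0.19). For Eef1b2 the groups did not overlap, although the test did not pass. Without WT replicate 2, Eif3h was called in microglia as well (adjusted p = 0.021). Apart from Eef1a2, the lowest were the stress kinase of the endoplasmic reticulum, Eif2ak3 (-0.63 ± 0.40, adjusted p = 0.60), and Eef2k, which inactivates eEF2 (-0.51 ± 0.27, adjusted p = 0.47). Among paralogs in microglia, Eef1d and Eef1g stood at 0.68 ± 0.28 and 0.53 ± 0.27, Eif4a1, Eif4a2 and Eif4a3 at 0.17 ± 0.23, 0.14 ± 0.23 and -0.35 ± 0.35, and Eif4ebp1, Eif4ebp2 and Eif4ebp3 at -0.36 ± 0.35, 0.29 ± 0.31 and -0.78 ± 0.52, none of them called. Without their transcripts that hold a small nucleolar RNA, described below, Eif4a1 and Eif4a2 stood at 0.42 ± 0.25 and -0.63 ± 0.26, also not called. By role in microglia, the 13 eIF3 subunits tested had a median of 0.38 with 10 above 0, the 3 eEF1B subunits one of 0.68 and the 4 kinases one of -0.32.

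**Figure D3:**
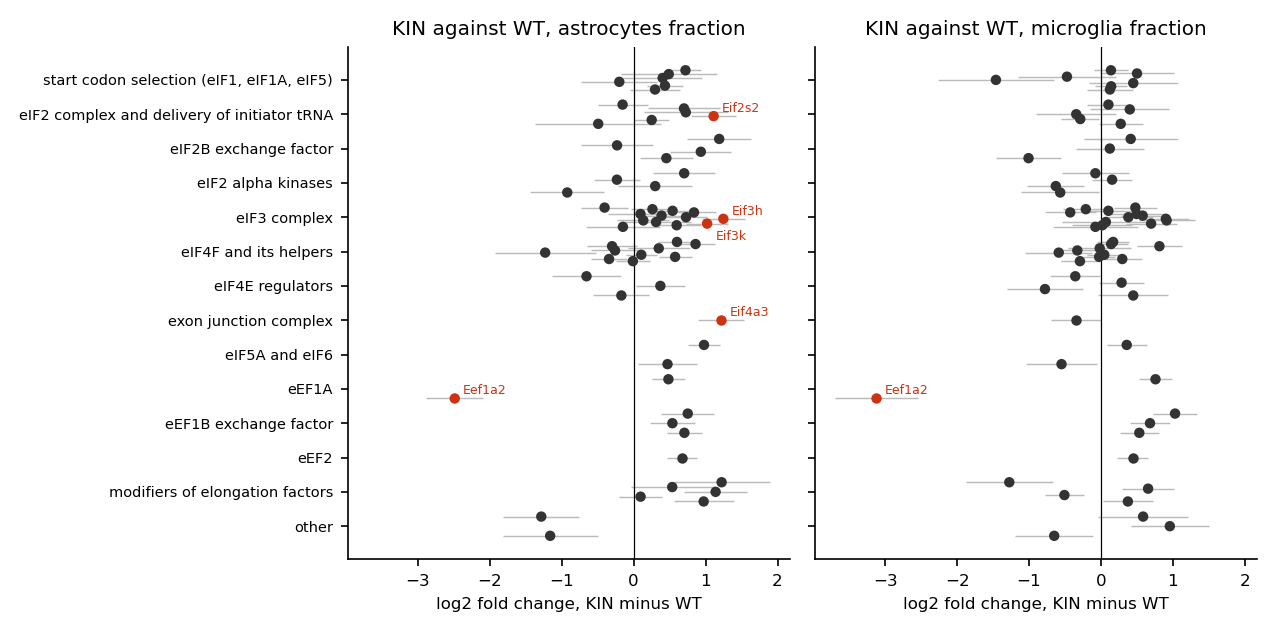
Log2 fold change of KIN against WT for each factor tested in astrocytes and in microglia (horizontal axis), by role (vertical axis), with standard errors as grey lines and called factors in red with their names. Most points lie to the right of 0 in astrocytes (44 of 62), and Eef1a2 lies far to the left in both fractions.

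In KIN neurons none of the 46 factors with enough reads was called by edgeR or DESeq2, with background shares of 0% higher and 0.0739% lower over 6765 genes. At an unadjusted p of at most 0.05 there was 1, Eif4ebp1, at 15.2, 17.4 and 10.8 CPM in WT and at 11.8, 8.11 and 9.03 CPM in KIN (-0.77 ± 0.38, adjusted p = 0.97), where 5.04% of all genes passed that limit. The median was 0.07. Among factors with a mean of at least 10 reads, the highest values were those of Eif2s3x (0.44 ± 0.41), Eef1b2 (0.41 ± 0.45) and Eif4g2 (0.38 ± 0.21), and the next lowest was that of Eif2ak2 (-0.16 ± 0.45). Without its transcript that holds a small nucleolar RNA, described below, Eif4g2 stood at -0.06 ± 0.38.

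Over the 3 fractions none of the 67 factors was called higher and 1, Eef1a2, lower in KIN, where 0.517% of all 13552 genes were called higher and 1.56% lower. Eif3h (0.91 ± 0.21, adjusted p = 0.0045), Eef1b2 (0.84 ± 0.23, adjusted p = 0.020) and Eif5a (0.60 ± 0.18, adjusted p = 0.043) passed the adjusted p but not the fold, and Eif3k stood at 0.69 ± 0.22 (adjusted p = 0.065). Of the 14 eIF3 subunits 13 were above 0, with a median of 0.41, and the median of all 67 factors was 0.21 against 0.03 for all genes. Among factors with a mean of at least 10 reads, the lowest after Eef1a2 were Eif4ebp1 (-0.51 ± 0.24, adjusted p = 0.28) and Eif4e2 (-0.28 ± 0.25, adjusted p = 0.66).

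No factor differed in its KIN effect between fractions by edgeR or DESeq2. Over all genes such differences were called for 0.819% between microglia and astrocytes, 0.708% between neurons and astrocytes and 0.14% between neurons and microglia. At an unadjusted p of at most 0.05 there were 8, 2 and 3 of the 67 factors, where 11.2%, 12.3% and 9.64% of all genes passed that limit. The lowest for microglia minus astrocytes were Eif4a3 (-1.58 ± 0.55, adjusted p = 0.18), Eif2s2 (-1.41 ± 0.46, adjusted p = 0.13) and Eif3d (-1.28 ± 0.54, adjusted p = 0.31). So the rise of Eif4a3 and Eif2s2 in astrocytes was not shown to be absent from microglia, where they stood at 5.38, 6.45 and 4.26 against 3.97, 3.59 and 4.91 CPM and at 10.8, 9.43 and 10.2 against 8.34, 8.26 and 8.42 CPM in WT against KIN. The highest were Eif4b (1.10 ± 0.53), Eif3a (0.86 ± 0.50) and Eif4g3 (0.62 ± 0.41). For neurons minus astrocytes the values ran from -0.88 ± 0.65 for Eif3l, -0.87 ± 0.79 for Eif5b and -0.83 ± 0.52 for Eif3k to 0.64 ± 0.70 for Eif4b and 0.97 ± 0.67 for Eif2a among factors with a mean of at least 10 reads other than Eef1a2, and for neurons minus microglia from -1.18 ± 0.69 for Eif3a to 1.05 ± 0.61 for Eef2k and 1.41 ± 0.57 for Eif2s2. For Eef1a1 the 3 differences were 0.26, -0.42 and -0.68 (adjusted p = 0.87, 0.72 and 0.59). Those of Eef1a2 with neurons were 1.78 ± 1.34 and 2.42 ± 1.39 (adjusted p = 0.62 and 0.59), with every neuronal library at the floor. All genes had medians of -0.05, 0.28 and 0.29 in these 3 contrasts.

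The genes with the most reads held them almost wholly on transcripts that span a small nucleolar RNA (snoRNA). snoRNAs guide chemical changes of ribosomal RNA and are cut from the introns of their host genes, many of which serve the ribosome. In GENCODE M39, Eif4a1, Eif4a2, Eif4g2 and Eif5 each hold annotated snoRNAs inside exons of transcripts that keep an intron or have no defined coding sequence. Such transcripts took 99.6% of the reads of Eif4a1, 99.7% of Eif4a2, 94.0% of Eif4g2 and 98.9% of Eif5. Gm22988, at chr11:69560461-69560604 on the minus strand, lies in the transcript with 80.9% of the Eif4a1 reads. Snora81, at chr16:22929506-22929683 on the plus strand, lies in that with 65.0% of the Eif4a2 reads. Gm23262, at chr7:110675267-110675434 on the minus strand, lies mostly in the 1 such transcript of Eif4g2. Snora28, at chr12:111507375-111507501 on the plus strand, lies in both such transcripts of Eif5. The GRCm39 sequences of these 4 are shown because for each gene the named snoRNA lies in its leading transcript or transcripts by reads, with an ACA near the 3′ end, the box that gives H/ACA snoRNAs their name, in capitals where 1 was found.
Gm22988: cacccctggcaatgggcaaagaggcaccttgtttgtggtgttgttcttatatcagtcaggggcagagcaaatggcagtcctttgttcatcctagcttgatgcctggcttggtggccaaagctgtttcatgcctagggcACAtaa
Snora81: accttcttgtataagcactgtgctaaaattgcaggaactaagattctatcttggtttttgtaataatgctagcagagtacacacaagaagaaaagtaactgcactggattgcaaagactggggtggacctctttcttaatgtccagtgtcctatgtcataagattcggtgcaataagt
Gm23262: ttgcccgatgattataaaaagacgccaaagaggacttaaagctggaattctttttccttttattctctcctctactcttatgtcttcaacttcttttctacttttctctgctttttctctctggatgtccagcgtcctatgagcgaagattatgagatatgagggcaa
Snora28: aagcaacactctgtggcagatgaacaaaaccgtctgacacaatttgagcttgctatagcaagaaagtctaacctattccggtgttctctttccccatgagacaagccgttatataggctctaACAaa

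The snoRNA transcripts of Eif4a1 had 8544 to 12818 reads in an astrocyte library, with a median of 10783.5, 6640 to 10101 in a microglia library and 1743 to 4365 in a neuronal one. All other transcripts of Eif4a1 together had 21 to 48, 28 to 59 and 13 to 33 reads. For Eif5 the snoRNA transcripts had 1977 to 2827, 1023 to 1618 and 82 to 282 reads and the others 12 to 29, 13 to 27 and 1 to 11. The counts are per transcript and not per position, so whether a read came from the snoRNA or from the host transcript was not tested. In all, 2.17% to 6.49% of a library's reads were on transcripts with such a snoRNA.

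**Figure D4:**
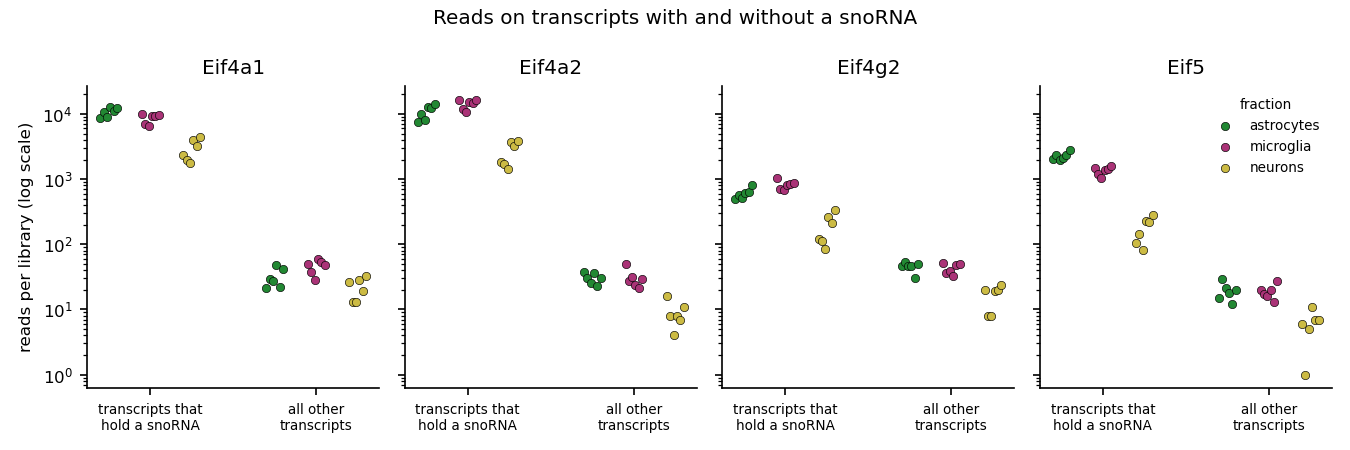
Reads per library (vertical axis, log scale) of Eif4a1, Eif4a2, Eif4g2 and Eif5 on transcripts that hold a snoRNA and on all others, 1 point per library. The first kind has 82 or more reads in every library and the second at most 59.

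The tests of these genes were repeated without such transcripts. For Eif4a2 the KIN difference in astrocytes was 0.86 ± 0.26 (adjusted p = 0.023, and called at 1.06 without KIN replicate 1) with them and 0.12 ± 0.26 (adjusted p = 0.84) without them. Eif4a1 stood at 0.60 ± 0.26 (adjusted p = 0.13) with them and at 0.69 ± 0.26 (adjusted p = 0.069) without them. In neurons against astrocytes Eif4a1 stood at -0.61 ± 0.17 (adjusted p = 0.0026) with them and at 0.80 ± 0.23 (adjusted p = 0.0028) without them, the opposite sign. This alternative was added after the counts had been seen.

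Between the neuronal and astrocyte fractions, over both genotypes, 6 of the 67 factors were higher in neurons and 3 lower, or 8.96% and 4.48%. With the leading transcript of each gene alone, 2 were higher and 8 lower, and the calls of Eef1b2, Eef1g, Eif3e and Eif3h were lost. Of all 13552 genes 11.5% were called higher and 19.3% lower, and the median of the factors was -0.14 against -0.27 for all genes. The 3 fractions were taken from the same brains, which these tests do not take into account. The largest fold among the higher ones was that of Eif4ebp1 (chr8:27750350-27766702, plus strand), which binds eIF4E and blocks cap-dependent initiation. It was at 1.02, 2.67 and 3.90 CPM (lowest, median and highest of 6) in astrocytes, at 4.37, 4.67 and 9.37 CPM in microglia and at 8.11, 11.3 and 17.4 CPM in neurons. Neurons and astrocytes did not overlap, and Eif4ebp1 was higher in neurons by 2.26 ± 0.31 against astrocytes (adjusted p = 8.3e-10) and by 1.13 ± 0.28 against microglia (adjusted p = 0.00050). It was lower in astrocytes than in microglia (-1.12 ± 0.31, adjusted p = 0.0016). Eif4ebp1 lost that call without microglia WT replicate 3, at -0.93, and with its leading transcript alone, at -0.76 (adjusted p = 0.056). Its paralogs Eif4ebp2 and Eif4ebp3 stood at -0.19 ± 0.34 (adjusted p = 0.70) and 0.59 ± 0.63 (adjusted p = 0.50) in neurons against astrocytes.

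Eef1akmt2, a methyltransferase of eEF1A, was also higher in neurons, by 2.15 ± 0.38 against astrocytes (adjusted p = 1.4e-06) and by 1.75 ± 0.37 against microglia (adjusted p = 6.1e-05). It was at 0.975, 2.03 and 2.30 CPM in astrocytes, at 1.40, 1.54 and 8.43 CPM in microglia and at 5.13, 7.44 and 13.0 CPM in neurons. The highest microglia library, WT replicate 2, stood within the neuronal range, and in the 6 WT libraries the call against microglia was lost (adjusted p = 0.13). Of the Eef1akmt2 reads 82.3% were on a transcript that keeps an intron, at chr7:132451835-132454368.

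Among the elongation factors, the eEF1B subunit Eef1g was at 8.78, 13.3 and 18.7 CPM in astrocytes, at 9.26, 16.8 and 19.0 CPM in microglia and at 24.6, 26.8 and 38.0 CPM in neurons. The neuronal libraries lay above all others, by 1.18 ± 0.21 against astrocytes (adjusted p = 1.1e-06) and by 1.00 ± 0.21 against microglia (adjusted p = 3.7e-05), just under the fold for a call. Eef1g was called against microglia with only genes of a mean of at least 10 reads (1.25), in the 6 WT libraries (1.18), and with some single libraries left out (1.01 to 1.16). Eef1b2 was lowest in astrocytes, at 2.51, 3.84 and 6.65 CPM, against 5.96, 7.26 and 18.3 CPM in microglia and 6.15, 8.10 and 16.1 CPM in neurons. It was higher in neurons than in astrocytes by 1.09 ± 0.31 (adjusted p = 0.0033) and lower in astrocytes than in microglia (-1.08 ± 0.26, adjusted p = 0.00027). The fold was under 1 without astrocytes KIN replicate 3 (0.96 and -0.99), without neurons KIN replicate 3 (0.89) and without microglia KIN replicate 1 (-0.91). With its leading transcript alone Eef1b2 stood at 0.49 (adjusted p = 0.48) and -0.73 (adjusted p = 0.13). Its call in neurons against astrocytes was also lost with no filter on low counts (0.99) and in the 6 WT libraries (adjusted p = 0.081). Its call in astrocytes against microglia was lost with only genes of a mean of at least 10 reads (-0.99). Eef1d, the other exchange subunit, stood at -0.08 ± 0.30 in neurons against astrocytes (adjusted p = 0.87). Eef2 was higher in neurons than in astrocytes by 0.89 ± 0.18 (adjusted p = 2.2e-05), under the fold for a call, and Eef1a1 by 0.56 ± 0.20 (adjusted p = 0.023).

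The eIF3 subunits Eif3h and Eif3e were higher in neurons than in astrocytes, by 1.08 ± 0.25 (adjusted p = 0.00029) and 1.27 ± 0.37 (adjusted p = 0.0036). Eif3h was at 3.89, 8.56 and 12.8 CPM in astrocytes and at 10.5, 14.8 and 24.9 CPM in neurons, and Eif3e at 1.92, 2.65 and 3.17 CPM and at 2.17, 7.71 and 9.73 CPM. Both overlapped between the fractions. Without neurons KIN replicate 1 Eif3h stood at 0.94, and with no filter on low counts at 0.98, both under the fold. Without neurons WT replicate 2 Eif3e stood at 0.92 (adjusted p = 0.12). In the 6 WT libraries Eif3e stood at 1.07 and was not called (adjusted p = 0.25). Eif3j1, a loosely bound subunit, had 5 to 9 reads per astrocyte library and 0, 0, 0, 3, 1 and 3 reads in the neuronal libraries. It was called lower in neurons against astrocytes (adjusted p = 0.017) and against microglia (adjusted p = 0.016). With every neuronal library at the floor, 2.78 CPM on average, and the astrocytes at 2.38 ± 0.63 CPM (SD, n = 6), no fold is given. Reads of the near-identical copy Eif3j2 could also be split with it.

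Eif5, which makes eIF2 release the initiator tRNA, was at 608, 756 and 1219 CPM in astrocytes, at 442, 535 and 602 CPM in microglia and at 117, 150 and 186 CPM in neurons. No neuronal library came near the others, and Eif5 was lower in neurons by -2.47 ± 0.19 against astrocytes (adjusted p = 7.2e-23) and by -1.80 ± 0.19 against microglia (adjusted p = 4.0e-15). Without its snoRNA transcripts the values were -0.39 ± 0.33 (adjusted p = 0.37) and -0.51 ± 0.33 (adjusted p = 0.24), so that the calls were lost. None of the 10 members of eIF4F and its helpers was called against astrocytes, although all 10 were below 0, with a median of -0.56. This holds only with the snoRNA transcripts counted, as without them Eif4a1 stood at 0.80 ± 0.23 and Eif4a2 at -0.43 ± 0.26. Of the paralogs, Eif4e, Eif4e2 and Eif4e3 stood at -1.02 ± 0.51 (adjusted p = 0.11), -0.03 ± 0.34 and -0.09 ± 0.67, and Eif4g1, Eif4g2 and Eif4g3 at -0.14 ± 0.20, -0.51 ± 0.18 (adjusted p = 0.018) and -0.73 ± 0.25 (adjusted p = 0.018). Without its snoRNA transcript Eif4g2 stood at -0.19 ± 0.23 (adjusted p = 0.55).

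**Figure D5:**
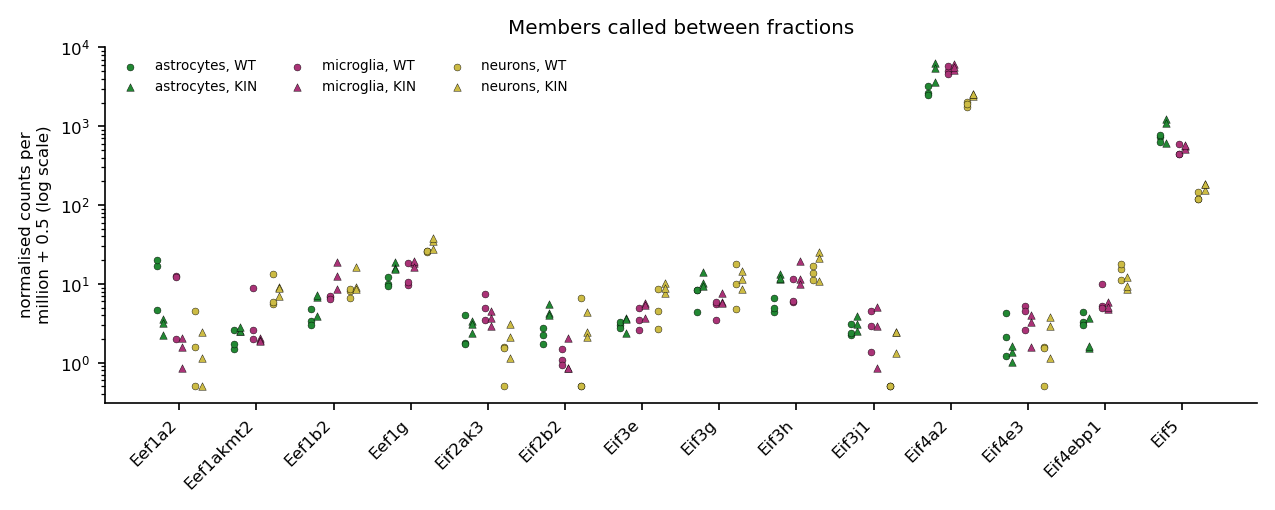
CPM plus 0.5 (vertical axis, log scale) of the 14 factors called between fractions, 1 point per library, by fraction and genotype. The neuronal libraries lie above all others for Eef1g and below all others for Eif5, and most of the other factors overlap between fractions.

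Against microglia, 4 factors were higher in neurons and 4 lower, where 10.2% of all genes were called higher and 17.3% lower. The higher ones were Eef1akmt2, Eif4ebp1, the eIF3 subunit Eif3g (1.07 ± 0.29, adjusted p = 0.0016) and the eIF2B subunit Eif2b2 (1.71 ± 0.63, adjusted p = 0.026). Eif2b2 had 0, 6 and 0 reads in WT neurons and 3, 2 and 6 in KIN neurons, against 1 to 4 in microglia, so that most libraries of both fractions were at the floor and the size is uncertain. It turned to -0.98 without neurons WT replicate 2 (adjusted p = 0.64), and Eif3g lost its call without that library too, at 0.74 (adjusted p = 0.092). Eif3g also fell under the fold without microglia WT replicate 3 (0.97) or neurons KIN replicate 3 (0.98). The lower ones, beside Eif5 and Eif3j1, were Eif2ak3, at 0, 1.05 and 2.62 CPM in neurons and 2.46, 3.60 and 6.87 CPM in microglia (-1.79 ± 0.54, adjusted p = 0.0060), and Eif4a2 (-1.30 ± 0.17, adjusted p = 3.0e-10). For Eif2ak3 5 of the 6 neuronal libraries were at the floor, so the size is uncertain. The call of Eif4a2 was lost without its snoRNA transcripts (-0.54 ± 0.27, adjusted p = 0.11). Without microglia KIN replicate 2 the adjusted p was 0.056 for Eif2b2 and 0.078 for Eif3j1, and without microglia KIN replicate 3 or neurons KIN replicate 3 it was 0.057 and 0.090 for Eif2b2. Of the other eIF2 alpha kinases, Eif2ak1, Eif2ak2 and Eif2ak4 stood at -0.13 ± 0.47, 0.34 ± 0.26 and -1.06 ± 0.58, none of them called.

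Between astrocytes and microglia, 1 factor was higher in astrocytes and 3 lower, where 18.2% of all genes were called higher and 14.9% lower. This balance was not stable, with 5 higher and 2 lower by the leading transcript, 0 higher and 6 lower in the 6 WT libraries, and 4 higher without astrocytes WT replicate 2 or KIN replicate 1. Eif2b2 was higher, at 1.25, 2.93 and 4.98 CPM in astrocytes and 0.351, 0.512 and 1.59 CPM in microglia (1.88 ± 0.51, adjusted p = 0.0012). As 5 of the 6 microglia libraries were at the floor, the size is uncertain, and the call was not made in the 6 WT libraries (adjusted p = 0.21). With Eif4ebp1 and Eef1b2, the cap-binding paralog Eif4e3 was lower (-1.13 ± 0.43, adjusted p = 0.024), on 1 to 12 reads per astrocyte library, 4 of them at the floor. Its adjusted p was between 0.053 and 0.093 without astrocytes WT replicate 1, KIN replicate 1 or KIN replicate 2, or without microglia WT replicate 1, KIN replicate 1 or KIN replicate 3. DESeq2 gave Eif4e3 an adjusted p of 0.064, and in the 6 WT libraries it stood at -0.88 (adjusted p = 0.19). Eif2s3x, the X-linked gamma subunit of eIF2, was higher in astrocytes by 0.94 ± 0.21 (adjusted p = 7.0e-05) and Eif3g by 0.71 ± 0.25 (adjusted p = 0.015), both under the fold. Eif2s3x was called, at 1.01 to 1.12, without astrocytes WT replicate 2 or KIN replicate 1 or microglia WT replicate 2 or KIN replicate 1. Eif2s3y had 35 reads over all libraries and was not called.

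Other genes of the pathway, 30 translation partners that are not factors by name, were described in the same way. The shares over all genes given above for each fraction are 2.43% higher and 6.42% lower in astrocytes, 0.739% and 0.785% in microglia, and 0% and 0.0739% in neurons. In KIN astrocytes 1 of 27 tested was called higher, the ribosome recycling factor Abce1 (1.06 ± 0.35, adjusted p = 0.038). Another 1 was called lower, Cyfip2, which encodes a protein that interacts with FMRP (-1.07 ± 0.33, adjusted p = 0.021). In KIN microglia 1 of 28 was called higher, Tpt1 (1.13 ± 0.24, adjusted p = 0.013), and none lower, and in neurons none of 19 was called.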

How the data were processed

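Libraries of total RNA, depleted of rRNA, tailed with poly(A) and given molecular identifiers, were made from 3 brain cell fractions of mice of 2 genotypes. The authors trimmed reads with Cutadapt 4.6, collapsed duplicates, mapped them stepwise with Bowtie2 2.4.4 to miRNA, piRNA, tRNA and other ncRNA and then to mm39, and counted with HTSeq 2.0.2 regardless of strand, so antisense or overlapping genes cannot be told apart. The deposited table holds raw counts per transcript. Its columns of the authors' own comparisons (fold changes and p-values) and 36 further columns of normalised values per sample were not used. Here counts were summed by gene name (35823 names and 137 unnamed identifiers), genes with 5 or more reads in 2 or more libraries of a fit were kept, TMM scaling was applied, and edgeR 4.0.16 with its quasi-likelihood test and Benjamini-Hochberg adjustment over all genes was used on the 6 libraries of a fraction, or on all 18 for contrasts between fractions. Library totals were 761481 to 3296398. DESeq2 1.42.0, size factors, other filters, single transcripts, a replicate block and left-out libraries were tried as alternatives. The fits were tested on simulated counts with larger changes than most seen here, in genes with more reads than most of the factors. That simulation therefore says nothing of small changes or low counts. Named are the eEF1A pair, every called factor, the 3 largest changes each way where fewer were called, and fixed groups of paralogs. Factors and lists were chosen with earlier results of these data known. The labels call the replicates biological, and p-values measure the spread between these samples. Floors cover counting error only. snoRNA positions came from GENCODE M39 on GRCm39, the assembly of mm39, and a transcript counted as holding a snoRNA when 1 exon covered at least 80% of it.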

Additional observations from a re-analysis of the deposited data

How the results depend on the processing

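In KIN against WT astrocytes 5 factors were called. There were 2 with DESeq2, 3 with the leading transcript of each gene, 9 by the adjusted p alone, and 3 to 7 as each library was left out. In microglia 1 was called, 0 with DESeq2, which gave Eef1a2 no adjusted p, and 0 to 2 with a library left out. In neurons there were 0 throughout. Over all fractions 1 was called, 0 without the fraction as a covariate (Eef1a2, adjusted p = 0.32), 4 by the adjusted p alone and 1 to 2 with libraries left out. Neurons against astrocytes gave 9 (6 higher and 3 lower), with the leading transcript 2 higher and 8 lower, 20 by the adjusted p alone and 8 to 13 with a library left out. Neurons against microglia gave 8, 5 with a mean of at least 10 counts, 14 by the adjusted p alone and 8 to 12. Astrocytes against microglia gave 4, 2 with a mean of at least 10 counts, 7 with the leading transcript (5 higher and 2 lower), 6 lower and 0 higher in the 6 WT libraries, 16 by the adjusted p alone and 3 to 7. KIN effects differed between neurons and microglia for 0 factors and for 0 to 1 with a library left out, which was Eef2k (4.10) without neurons WT replicate 2. With a library left out, the KIN minus WT difference of the log2 ratio of Eef1a1 to Eef1a2 ranged over 2.09 to 3.24 in astrocytes, 2.78 to 4.39 in microglia and -0.18 to 1.57 in neurons, where -0.18 was without WT replicate 3 and, as the added 0.5 largely sets the values there, no difference is read from them. Eif2b2 in neurons against microglia ranged over -0.98 to 2.20 as libraries were left out, with -0.98 without neurons WT replicate 2. The cause of these changes was not tested. Between the KIN effects of neurons and the glia, scaling by size factors moved the median of all genes from 0.28 to 0.13 and from 0.29 to 0.15.

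The 3 fractions came from the same brains, but the replicate numbers are not stated to mark a brain or litter. Deviations of libraries with the same number correlated by -0.041 to 0.042 between genotypes and by -0.030 to 0.17 between fractions (0.050 to 0.17 for WT astrocytes and microglia), so whether a number marks the same brain was not settled and the samples were taken to share only a number. Of the 3 KIN libraries of a fraction, 1 in astrocytes, 1 in microglia and 0 in neurons correlated best with the WT library of its own number. With the number as a replicate block 5 factors were called in astrocytes, 1 in microglia, 0 in neurons, 1 over all fractions, 7, 7 and 4 between fractions and 0 for differences in the KIN effect. In neurons against microglia the block gave Eef1a2 at -1.58 (adjusted p = 0.020) and Eif4g2 at -1.01 (adjusted p = 5.4e-05), calls not made in the main fit. It ended those of Eif2b2, Eif3g and Eif3j1. In neurons against astrocytes it ended those of Eif3h and Eif3j1. DESeq2 also called Eif4g2 in neurons against microglia (-1.01, adjusted p = 4.0e-10), but without its snoRNA transcript Eif4g2 stood at -0.23 ± 0.23 there (edgeR, adjusted p = 0.48). For the factors named by the rule in each comparison, 1354 values under other settings kept their side of the threshold, 67 lost a call without a change of direction, 22 gained one and 1 called value changed sign. Calls gained by factors that the rule does not name are not in this count. At 3 reads or fewer a level is not told from 0, which holds for Eef1a2 in every neuronal library and in 3 microglia libraries.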
